A study of Rattus norvegicus with 28 samples.

Results

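The kidneys of 2 rat strains, SBH/y and SBN/y, were compared 4 months after removal of a kidney, on 14 of the 28 arrays of the series. The members were the 7 arrays titled as uninephrectomized SBH/y and the 7 titled as uninephrectomized SBN/y, taken from the array titles alone, and all differences below are SBH/y minus SBN/y. Every rat was female, was operated on after weaning, ate standard chow and was killed at the age of 5 months. The other 14 arrays, 7 of each strain, came from sham-operated rats of the same age that kept both kidneys, and they served here for the spread between arrays and for a comparison of the strain difference in the 2 surgical states. SBH/y and SBN/y are inbred Sabra rats known for salt-sensitive and salt-resistant blood pressure respectively, and the title of the series names proteinuria as its subject. The strains differ at many loci and neither carries an engineered allele, so no single locus is compared. Each array held RNA of snap-frozen kidney. Whether each array came from a separate rat is not stated, so p-values measure the spread between arrays.

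Loss of a kidney makes the remaining one enlarge and filter more blood per nephron. Podocytes, the cells that wrap the glomerular capillaries, hold back plasma protein with the slit diaphragm. Protein that passes is taken up by the proximal tubule through the receptors megalin and cubilin and is broken down in lysosomes. Tubule cells under stress are known to make Havcr1 (kidney injury molecule), Spp1 (osteopontin) and Timp1 (an inhibitor of matrix proteases), and macrophages gather where injury persists.

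The values were log2 RMA values of 31042 probe sets, the control probe sets left out, and a difference of 1 is a 2-fold change. A probe set was called changed at an adjusted p under 0.05 in limma, fitted with 1 mean per group over all 28 arrays and adjusted by Benjamini-Hochberg over all probe sets. All adjusted p-values below are from that fit, errors of differences are its SE, and n = 7 arrays in every group. A gene was represented by its probe set with the highest mean, which gave 14217 genes. Array medians lay between 5.72 and 5.77, correlations between arrays between 0.985 and 0.997, and no pair of arrays held identical values. The kidney markers Umod and Lrp2 stood at 13.14 to 13.43 and at 12.41 to 12.55 on the 14 arrays. The 3′ minus 5′ difference of the control probe sets, a sign of RNA degradation, differed between the strains by 0.029 for Gapdh (exact two-sided permutation test, p = 0.181, adjusted p = 0.361) and by -0.038 for Actb (p = 0.404, adjusted p = 0.404), 7 arrays against 7.

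A measure of the circadian clock nearly separated the strains after uninephrectomy. The clock is a loop in which Bmal1, Npas2 and Clock switch on their own repressors and output genes, so the level of these genes depends on the time of day. A score over 13 clock genes, chosen after the values were seen, was the mean of the centred log2 values of Bmal1, Npas2 and Clock and of the sign-turned values of 10 genes they switch on. It ran from -1.18 to 0.55 in SBH/y, median -0.94, and from -0.83 to 0.58 in SBN/y, median 0.33. Replicate 2 of SBH/y was the high exception and replicate 6 of SBN/y the low exception. Bmal1 was lowest at 4.41, median 4.80 and highest at 7.52 in SBH/y, and 4.95, 6.87 and 7.28 in SBN/y, with a difference of -1.52 ± 0.33 (adjusted p = 0.000836). Dbp, an output gene of the clock, measured 6.58, 8.87 and 9.23 in SBH/y against 6.24, 6.52 and 9.03 in SBN/y, a difference of 1.60 ± 0.36 (adjusted p = 0.00107). The ranges of both genes overlapped because of those exceptional arrays. In sham-operated rats the score was higher in SBH/y. It ran from 0.40 to 0.64 there, median 0.44, and from -0.25 to 0.47 in SBN/y, median -0.15. Times of death are not in the labels used here. Clock phase and strain cannot be told apart here, since the score nearly followed strain after uninephrectomy. The score was added to the fit as a covariate to see which calls depend on it. In that fit the effect of the score rests on its spread within groups, in which the exceptional arrays weigh most. Kept or lost calls therefore do not measure the part of the clock. That fit called 3847 probe sets in place of 6663, while the median SE of a strain difference rose from 0.066 to 0.087. By gene it called 8.86% of all genes higher and 6.32% lower in SBH/y, the shares to set beside counts from that fit below.

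**Figure D1:**
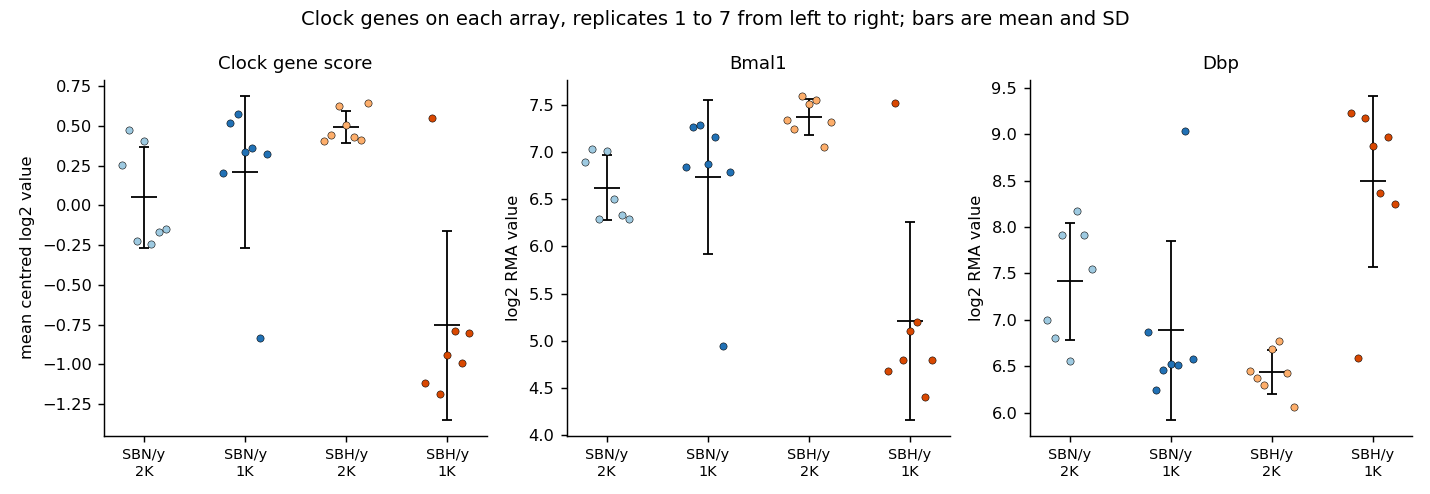
The clock gene score (mean centred log2 value) and the log2 RMA values of Bmal1 and Dbp on each of the 28 arrays by strain and by kidneys in place (1K or 2K); bars are the mean and SD of 7 arrays. After uninephrectomy (1K) SBH/y replicate 2 lies with the SBN/y arrays (score 0.55) and SBN/y replicate 6 with the SBH/y arrays (score -0.83).

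After uninephrectomy 6663 probe sets differed between the strains, 21.5% of those tested, 11.1% higher and 10.3% lower in SBH/y. By gene, 3808 differed between the strains (26.8%). Of these 2114 were higher in SBH/y (14.9% of all genes) and 1694 lower (11.9%). Most differences were small, with a median size of 0.28 for the higher and 0.27 for the lower genes. A difference of at least 2-fold was reached by 86 higher genes (0.605%) and 61 lower genes (0.429%). For 954 genes (6.71%) every SBH/y array lay above every SBN/y array, and for 721 genes (5.07%) every SBH/y array lay below. Such a separation takes in all 14 arrays by definition, the replicates with the exceptional clock score included, and is no test of the clock. The median difference of all genes was 0.001. Of the 4525 genes with more than 1 probe set, 1269 were called; another probe set was called in the same direction only for 534 of them, in the opposite direction for 38, and no other was called for 697.

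Gene groups differed in direction. The counts of list members below stand beside 14.9% of all genes higher and 11.9% lower. Genes of macrophages, interferon response, antigen presentation, lysosomes and the integrated stress response were called higher in SBH/y in 59.5% to 78.6% of cases, beside 14.9% of all genes. Markers of the thick ascending limb, distal tubule, collecting duct and intercalated cells, and genes of mitochondrial oxidative phosphorylation, were called lower in 50% to 75% of cases, beside 11.9% of all genes. In whole kidney, fewer cells of a type and less RNA per cell cannot be told apart.

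**Figure D2:**
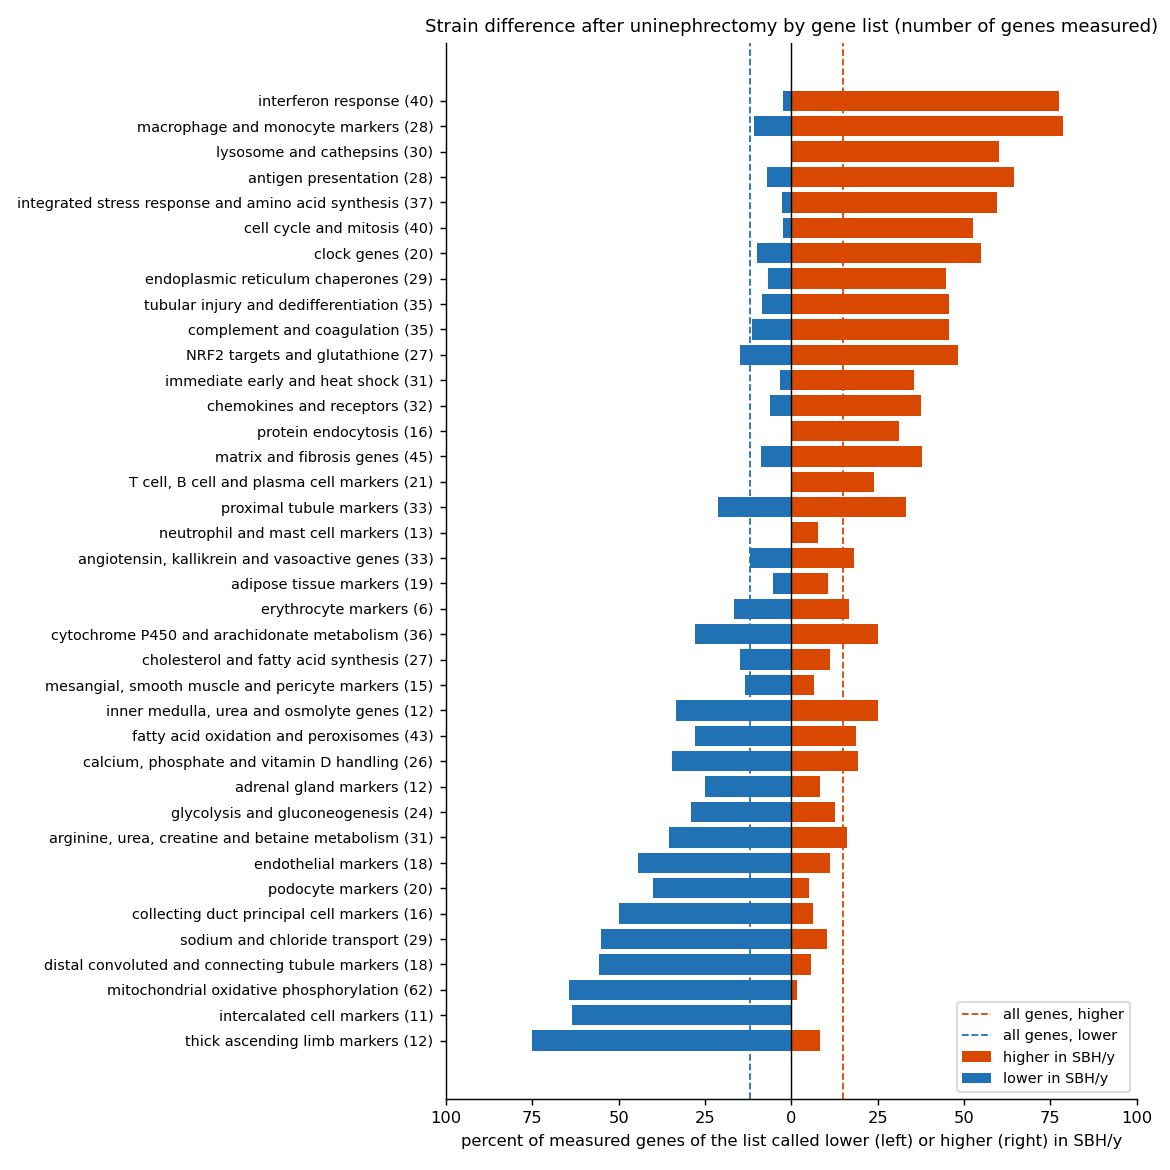
Percent of the measured genes of each list called higher (right) or lower (left) in SBH/y after uninephrectomy, with the number of genes measured in brackets; dashed lines mark the shares of all genes, 14.9% higher and 11.9% lower. Interferon and macrophage genes reach 77.5% and 78.6% higher, and thick ascending limb markers 75% lower.

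Injury markers of the tubule were higher in SBH/y. Havcr1 measured 4.38 at the lowest, 5.09 at the median and 5.71 at the highest in SBN/y, against 6.64, 7.19 and 8.81 in SBH/y. The lowest SBH/y array lay above the highest SBN/y array, and the difference was 2.40 ± 0.23 or 5.27-fold (adjusted p = 2.07e-09). In sham-operated rats the Havcr1 difference was 0.15 (adjusted p = 0.72), and the test of the change between surgical states gave 2.25 ± 0.33 (adjusted p = 0.000741). With the clock score as a covariate Havcr1 still differed by 2.38 after uninephrectomy, and the change between states was 2.22, no longer past the threshold, as held for every change between states in that fit. Spp1, a secreted matrix protein of stressed tubules, ran from 11.53 over 11.67 to 12.07 in SBN/y and from 12.16 over 12.40 to 12.89 in SBH/y. Its ranges were apart, and the difference of 0.75 ± 0.10 (adjusted p = 3.61e-07) compared with -0.02 in sham-operated rats. Timp1 measured 6.82, 6.90 and 7.06 in SBN/y and 7.29, 7.55 and 7.74 in SBH/y, again without overlap, a difference of 0.60 ± 0.08 (adjusted p = 7.33e-07) against -0.01 with both kidneys. Gpnmb, a glycoprotein of macrophages and injured epithelium, rose from a median of 6.21 to 7.32, by 1.17 ± 0.11 (adjusted p = 5.56e-10).

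In the list of tubular injury and dedifferentiation genes 16 of 35 measured members rose and 3 fell, with a median difference of 0.15. That was 45.7% higher and 8.57% lower, beside 14.9% and 11.9% of all genes. In sham-operated rats 14 of the 35 were higher and 5 lower in SBH/y, with a median of 0.11. The change between states passed its test for 5 of the 35. Myof, a membrane repair protein, rose by 0.94 ± 0.06 and the growth factor Mdk by 0.69 ± 0.06, both without overlap of the arrays. Mdk was also higher in sham-operated SBH/y, by 0.46 (adjusted p = 2.88e-07). Other injury genes did not differ past the threshold. Lcn2 (neutrophil gelatinase-associated lipocalin) differed by -0.01 ± 0.09 (adjusted p = 0.969), its sign turning under other scalings. Its probe set was dim, at means of 3.85 in SBN/y and 3.84 in SBH/y, which limits what it can show. Clu (clusterin) differed by -0.10 ± 0.07 (adjusted p = 0.366) after uninephrectomy and by -0.64 (adjusted p = 1.17e-08) in sham-operated rats. That gap of 0.54 passed its own test (adjusted p = 0.00315). Areg, a ligand of the epidermal growth factor receptor, measured 3.38 to 3.79 in SBN/y and 4.10 to 5.74 in SBH/y, a difference of 1.58 ± 0.15.

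**Figure D3:**
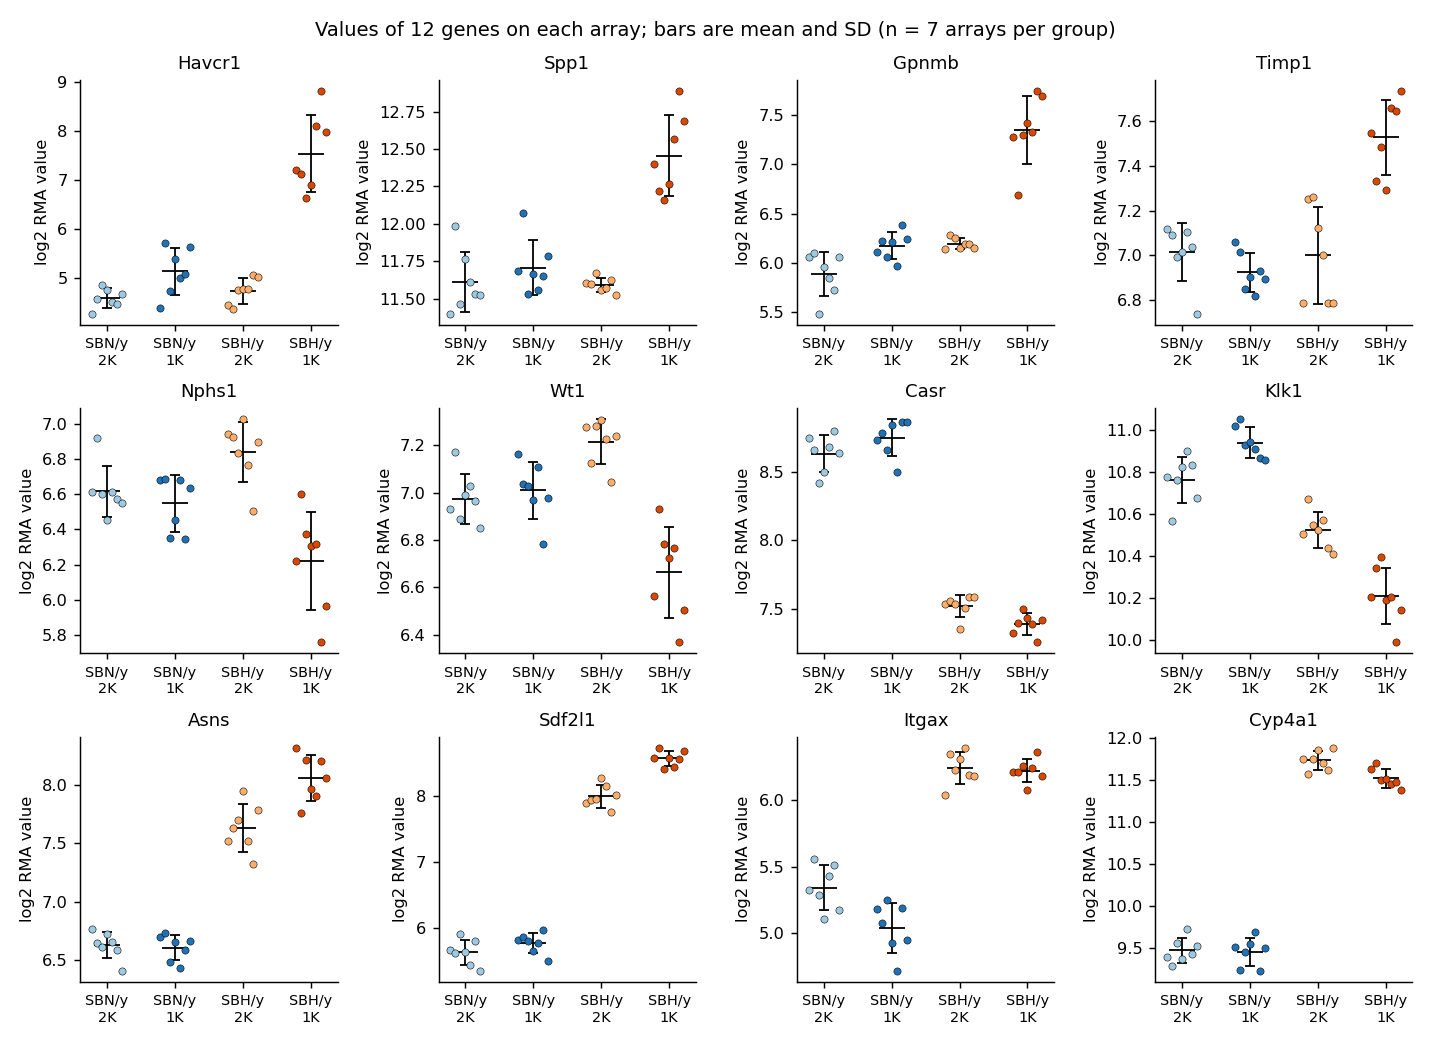
Log2 RMA values of 12 genes on each array in the 4 groups, with mean and SD of 7 arrays; 1K and 2K are the kidneys in place. Havcr1, Spp1, Gpnmb and Timp1 of uninephrectomized SBH/y lie above the uninephrectomized SBN/y arrays, and Casr and Klk1 lie below them.

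Within the 7 SBH/y arrays the amount of Havcr1 varied from 6.64 to 8.81, and its relation to 12 genes was examined. Spp1 followed it, with Pearson's r = 0.969 (exact permutation p = 0.00159, adjusted p = 0.019 over 12 genes) and Spearman's rho = 0.929 (exact permutation p = 0.00675, adjusted p = 0.081). Without the 2 arrays farthest from the Havcr1 median, replicates 5 and 6, r was 0.956. Nphs1 gave r = -0.767 (exact permutation p = 0.0423, adjusted p = 0.254) and Timp1 r = 0.735 (exact permutation p = 0.0657, adjusted p = 0.263), which did not pass after adjustment. Asns gave r = 0.055 (exact permutation p = 0.906, adjusted p = 0.906). For the genes other than Spp1 the lowest adjusted p of r was 0.254.

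**Figure D4:**
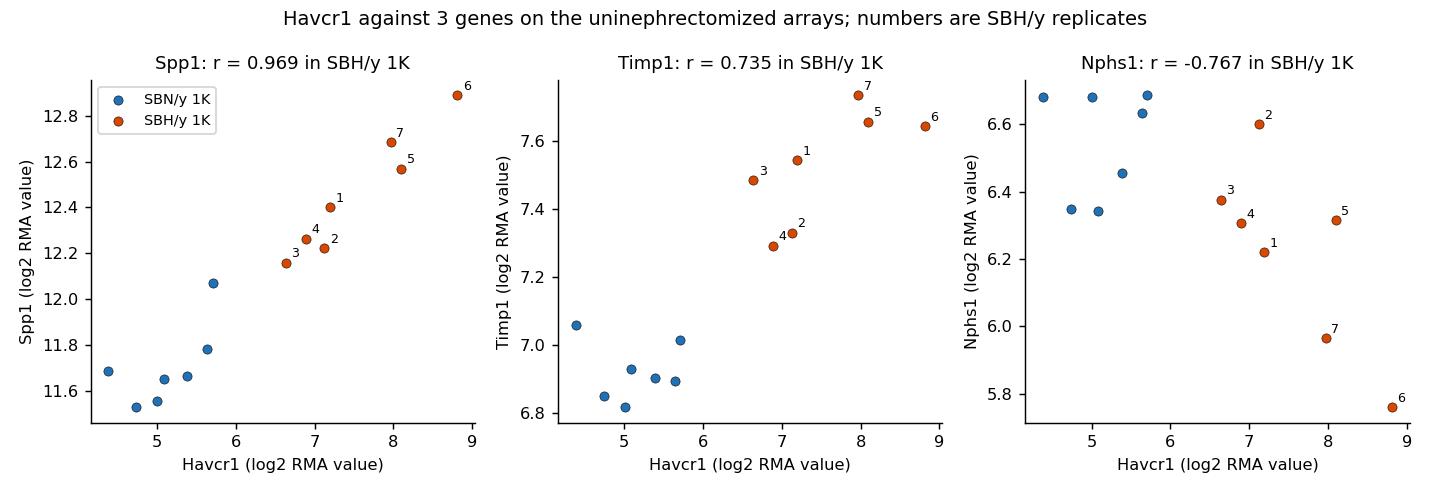
Havcr1 (x axis) against Spp1, Timp1 and Nphs1 (y axes), all log2 RMA values, on the 14 uninephrectomized arrays; numbers mark SBH/y replicates. Spp1 rises with Havcr1 over the 7 SBH/y arrays (r = 0.969), and replicate 6 is highest in both.

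Podocyte genes were lower in SBH/y for part of the list. Of 20 markers measured, 8 fell and 1 rose, with a median difference of -0.093. Synpo, an actin-binding protein of foot processes, measured 9.30, 9.52 and 9.63 in SBN/y and 8.87, 9.08 and 9.25 in SBH/y. Every SBH/y array lay below every SBN/y array, and the difference was -0.44 ± 0.06 (adjusted p = 1.56e-06). The 2 other Synpo probe sets were not called (-0.17, adjusted p = 0.119, and -0.13, adjusted p = 0.15). Arhgap24, a regulator of podocyte Rac, fell by 0.32 ± 0.04 without overlap. Wt1, the transcription factor of podocyte identity, measured 6.78, 7.03 and 7.16 in SBN/y and 6.37, 6.72 and 6.93 in SBH/y, with overlapping ranges and a difference of -0.35 ± 0.07 (adjusted p = 0.000323). In sham-operated rats Wt1 was higher in SBH/y by 0.24 (adjusted p = 0.014). Nphs1 (nephrin, the backbone of the slit diaphragm) differed by -0.33 ± 0.10 (adjusted p = 0.0137) after uninephrectomy and by 0.22 (adjusted p = 0.116) with both kidneys, and its other probe set was not called after uninephrectomy (-0.19, adjusted p = 0.154). The change between states passed its test for Wt1 (-0.59, adjusted p = 0.00201) and for Nphs1 (-0.55, adjusted p = 0.0364). Podxl, the sialoprotein of the podocyte surface, fell by 0.28 ± 0.06. Its other probe sets differed by -0.315 (adjusted p = 0.0363) and -0.144 (adjusted p = 0.298). After the clock score was added 3 podocyte markers fell and 1 rose; Synpo, Arhgap24 and Podxl kept their calls, while Wt1 (-0.16) and Nphs1 (-0.13) lost theirs.

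Endothelial markers showed 8 lower and 2 higher of 18 measured, and 3 lower with the clock score in the fit. Kdr, a receptor for vascular growth factor, fell by 0.41 ± 0.05 and the junction protein Esam by 0.35 ± 0.04, both with ranges apart. The other Kdr probe set was not called (-0.068, adjusted p = 0.538) and was dim, at means of 3.88 and 3.81. Plvap, a protein of fenestral diaphragms, fell by 0.31 ± 0.05 and lost its call with the clock score as a covariate. Of 15 mesangial, smooth muscle and pericyte markers 2 fell and 1 rose, and 12 did not pass. That was 13.3% lower and 6.67% higher, beside 11.9% and 14.9% of all genes. Cspg4 (a pericyte proteoglycan) fell by 0.39 ± 0.08 and Myh11 (smooth muscle myosin) by 0.25 ± 0.06, while Des (desmin) rose by 0.22 ± 0.06 and lost its call with the clock score. The other Myh11 probe set was not called (-0.114, adjusted p = 0.26).

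Distal nephron genes were lower in SBH/y. In the thick ascending limb list 9 of 12 measured markers fell and 1 rose (median -0.30). Casr, the calcium-sensing receptor, measured 8.50, 8.79 and 8.87 in SBN/y and 7.25, 7.39 and 7.50 in SBH/y. The groups did not overlap, and the difference was -1.37 ± 0.06 (adjusted p = 1.11e-17). It was -1.12 in sham-operated rats. Ppp1r1b, an inhibitor of protein phosphatase, fell by 0.75 ± 0.06 and Cldn16, the tight junction protein for magnesium and calcium, by 0.47 ± 0.05. Slc12a1, the sodium-potassium-chloride cotransporter, fell by 0.24 ± 0.05 and Egf by 0.22 ± 0.04, both with overlapping ranges and both lost with the clock score. Umod (uromodulin), the secreted protein of the same segment, measured 13.14, 13.26 and 13.43 in SBN/y and 13.18, 13.27 and 13.30 in SBH/y, with a difference of 0.00 ± 0.04 to 2 decimals (adjusted p = 0.98). In the fit with the clock score 5 of the 12 limb markers fell.

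Further down the nephron, 10 of 18 distal convoluted and connecting tubule markers fell and 1 rose. Klk1, the tissue kallikrein that releases kinins, measured 10.86, 10.93 and 11.05 in SBN/y and 9.99, 10.20 and 10.40 in SBH/y. The arrays did not overlap, and the difference of -0.73 ± 0.06 (adjusted p = 1.38e-11) was larger than the -0.24 of sham-operated rats, with a change of -0.49 (adjusted p = 0.00157). Slc8a1, the sodium-calcium exchanger, fell by 0.72 ± 0.07, and Stk39, the kinase that activates sodium-chloride cotransport, by 0.50 ± 0.05. The cotransporter Slc12a3 itself differed by -0.10 ± 0.08 (adjusted p = 0.424). Of 16 principal cell markers 8 fell and 1 rose. Kcne1, a potassium channel subunit, fell by 0.84 ± 0.09 and Hsd11b2, which shields the mineralocorticoid receptor from glucocorticoids, by 0.24 ± 0.04, whereas Fxyd4, a regulator of the sodium pump, rose by 0.45 ± 0.07. Of 11 intercalated cell markers 7 fell and none rose, and 4 fell with the clock score in the fit. Slc4a1, the anion exchanger of acid-secreting cells, fell by 0.59 ± 0.07 and Foxi1, their transcription factor, by 0.41 ± 0.07, both with ranges apart.

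Sodium and chloride transport genes followed the same direction, with 16 of 29 lower and 3 higher (median -0.16). Klhl3, an adaptor for degradation of WNK kinases, fell by 0.46 ± 0.07. Add1 (adducin), a cytoskeletal protein, rose by 0.28 ± 0.04, with every SBH/y array above the SBN/y arrays. Among calcium, phosphate and vitamin D genes 9 of 26 fell (34.6%) and 5 rose (19.2%), beside 11.9% and 14.9% of all genes. Enpp1, which makes pyrophosphate, fell by 1.30 ± 0.07, and Kl (klotho) by 0.51 ± 0.15 (adjusted p = 0.0116). The Kl ranges overlapped, 7.08 to 8.31 in SBN/y and 6.74 to 7.12 in SBH/y, and its call was lost with the clock score.

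Proximal tubule markers were mixed, with 11 of 33 higher (33.3%) and 7 lower (21.2%), beside 14.9% and 11.9% of all genes. With the clock score 5 were higher and 3 lower, beside 8.86% and 6.32% of all genes. Agmat, agmatinase, measured 8.55, 8.74 and 8.87 in SBN/y and 10.13, 10.26 and 10.37 in SBH/y, a difference of 1.53 ± 0.06 (adjusted p = 3.74e-19) and 1.44 in sham-operated rats. Cyp4b1 rose by 0.89 ± 0.09 and the organic cation transporter Slc22a2 by 0.78 ± 0.09. These 3 were named for the smallest p in the list, and all rose. Of the 7 lower markers, Pck1 fell by 0.12 (adjusted p = 0.0361). That call was lost when any 1 of 9 of the 14 arrays was left out, and with the clock score. Genes of protein endocytosis moved by small amounts: 5 of 16 rose (31.2%, beside 14.9% of all genes), none fell, and the median difference was 0.079. The receptor Lrp2 (megalin) measured 12.48, 12.49 and 12.53 in SBN/y and 12.41, 12.51 and 12.55 in SBH/y, so the groups overlapped throughout (difference 0.00 ± 0.03, adjusted p = 0.948). Cubn (cubilin) rose by 0.12 ± 0.04 (adjusted p = 0.0346), a call that was lost when any 1 of 7 of the 14 arrays was left out, and with the clock score. Amn, which carries cubilin to the surface, rose by 0.21 ± 0.06, and Fcgrt, the neonatal Fc receptor that recycles albumin, by 0.29 ± 0.05. The adaptor Dab2 differed by 0.06 ± 0.05 (adjusted p = 0.445).

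Lysosomal genes rose in 18 of 30 cases and none fell (median 0.17). Hexa, a hexosaminidase subunit, measured 10.38, 10.50 and 10.62 in SBN/y and 11.03, 11.06 and 11.17 in SBH/y, without overlap and with a difference of 0.60 ± 0.04 (adjusted p = 1.69e-12). The protease Ctsz rose by 0.72 ± 0.07 and the sialidase Neu1 by 0.40 ± 0.06. Hexa was also higher in sham-operated SBH/y, by 0.38.

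Macrophage and monocyte markers rose in 22 of 28 cases and fell in 3, with a median difference of 0.58. Their mean centred level ran from -0.26 to -0.11 in SBN/y and from 0.069 to 0.41 in SBH/y, so the groups did not overlap. Itgax (CD11c) measured 4.71, 5.08 and 5.25 in SBN/y and 6.08, 6.22 and 6.36 in SBH/y, a difference of 1.18 ± 0.08 (adjusted p = 1.4e-13), and was 0.90 higher in sham-operated SBH/y. Lyz2 (lysozyme) rose by 0.93 ± 0.07, Fcer1g (the signalling chain of Fc receptors) by 0.78 ± 0.07 and Cd68 by 0.62 ± 0.08, all with ranges apart. With the clock score in the fit 21 of the 28 still rose. The part of macrophage number in the other immune results was not tested.

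Complement and coagulation genes rose in 16 of 35 cases and fell in 4. C1qc, a chain of the first complement component, rose by 0.73 ± 0.08, Fgb (a fibrinogen chain) by 1.23 ± 0.12 and F8 (coagulation factor VIII) by 0.77 ± 0.07. Of the 4 further F8 probe sets, 2 were called higher (0.37 and 0.41) and 2 differed by 0.012 and -0.014. The other Fgb probe sets were not called (-0.027, adjusted p = 0.868, and -0.032, adjusted p = 0.779) and were dim, with means from 2.94 to 3.50. Among chemokines and receptors 12 of 32 rose and 2 fell, with Ccl6 higher by 1.52 ± 0.12 and Cxcl16 by 0.52 ± 0.05. Lymphoid genes were called higher in 5 of 21 cases (23.8%, beside 14.9% of all genes), and in 3 with the clock score in the fit. The immunoglobulin joining chain Jchain measured 6.03, 6.19 and 6.38 in SBN/y and 7.60, 7.89 and 8.76 in SBH/y (difference 1.82 ± 0.13, adjusted p = 3.07e-12), and Pou2af1, a B cell coactivator, rose by 0.68 ± 0.07. The perforin gene Prf1 rose by 0.41 ± 0.08 with overlapping arrays. Of 13 neutrophil and mast cell markers 1 rose (7.69%, beside 14.9% of all genes). It was Camp, higher by 0.24 ± 0.07, which lost its call with the clock score.

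Interferon response genes rose in 31 of 40 cases and fell in 1 (median 0.34). Interferons act through transcription factors that bind the interferon-stimulated response element. Ifi27 measured 9.48, 9.57 and 9.75 in SBN/y and 10.96, 11.14 and 11.22 in SBH/y, a 2.83-fold difference (adjusted p = 1.11e-17) that was 1.28 on the log2 scale in sham-operated rats. Oas1b, an oligoadenylate synthetase of antiviral defence, measured 3.11, 3.33 and 3.56 against 4.26, 4.32 and 4.57, with a difference of 1.06 ± 0.08, and the chemokine Cxcl11 rose 2.01-fold. The promoter windows of the list were searched for GAAANNGAA on both strands. A window held the 300 bases around the RefSeq start of a gene on GRCr8, a genome of another rat strain. The letters were found in 17 of the 28 windows of called-higher members (60.7%), in 21 of 33 windows of all measured members (63.6%) and in 9.71% of all 33469 windows. The windows of Ifi27 (chr6:128355062-128355361, plus strand) and Oas1b (chr12:41395803-41396102, minus strand) are given because they belong to the list's most strongly called members with a match, and capitals mark the matches, which overlap each other in Oas1b.
Ifi27: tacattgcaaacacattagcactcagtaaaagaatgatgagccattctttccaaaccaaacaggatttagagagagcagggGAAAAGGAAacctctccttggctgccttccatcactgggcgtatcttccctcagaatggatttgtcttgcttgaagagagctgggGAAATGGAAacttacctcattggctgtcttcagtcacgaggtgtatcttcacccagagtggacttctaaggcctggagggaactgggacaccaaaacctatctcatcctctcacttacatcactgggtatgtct
Oas1b: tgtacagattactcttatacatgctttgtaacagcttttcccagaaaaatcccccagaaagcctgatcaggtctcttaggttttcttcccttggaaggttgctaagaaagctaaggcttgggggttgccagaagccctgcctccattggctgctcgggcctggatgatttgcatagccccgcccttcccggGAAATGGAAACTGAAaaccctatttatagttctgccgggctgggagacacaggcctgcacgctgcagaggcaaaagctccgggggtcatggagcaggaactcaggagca

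Antigen presentation genes rose in 18 of 28 cases and fell in 2, and within this list genes of the MHC differed most in both directions. RT1-Ba, a class II alpha chain, measured 8.54, 9.01 and 9.10 in SBN/y and 10.69, 11.12 and 11.41 in SBH/y (difference 2.14 ± 0.10, adjusted p = 2.65e-17). RT1-Bb, the class II beta chain, went the opposite way, from 8.78, 8.99 and 9.43 to 4.44, 5.33 and 6.26 (difference -3.71 ± 0.18, adjusted p = 2.95e-16). RT1-CE12, a class I gene, fell by 1.01 ± 0.04. The rise of RT1-Ba rests on 1 of 4 probe sets: the others differed by -0.75 (adjusted p = 4.94e-06), -0.17 (adjusted p = 0.249) and -0.18 (adjusted p = 0.0648). The other RT1-Bb probe set was dim, at means of 3.71 and 3.72. The strain differences of these genes in sham-operated rats were 2.02, -3.77 and -1.07. Sequence differences between the strains under the probes were not tested.

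Genes of the integrated stress response and amino acid synthesis rose in 22 of 37 cases and fell in 1 (median 0.21), and in 14 cases with the clock score in the fit. In this response phosphorylation of eIF2 alpha favours translation of Atf4, which switches on genes of amino acid supply. Asns, asparagine synthetase, measured 6.44, 6.65 and 6.73 in SBN/y and 7.76, 8.06 and 8.32 in SBH/y. The arrays lay apart, and the difference was 1.45 ± 0.08 (adjusted p = 8.99e-15), larger than in sham-operated rats by 0.45 (adjusted p = 0.0467). Atf3, a transcription factor of the pathway, measured 3.68, 3.73 and 3.94 against 4.40, 4.64 and 4.99, a difference of 0.85 ± 0.07, and the mitochondrial folate enzyme Mthfd2 rose by 0.89 ± 0.09. The C/EBP-ATF response element TGATGNAA, searched on both strands, lay in 8 of 20 windows of called-higher members (40%), in 10 of 34 windows of all measured members (29.4%) and in 3.98% of all windows. Chac1, a glutathione-degrading enzyme singled out after its values were seen, rose by 1.18 ± 0.14 (adjusted p = 6.13e-08) and had the largest rise among members with a match. Its window (GRCr8, chr3:126795881-126796180, plus strand) has the match, on the minus strand, in capitals.
Chac1: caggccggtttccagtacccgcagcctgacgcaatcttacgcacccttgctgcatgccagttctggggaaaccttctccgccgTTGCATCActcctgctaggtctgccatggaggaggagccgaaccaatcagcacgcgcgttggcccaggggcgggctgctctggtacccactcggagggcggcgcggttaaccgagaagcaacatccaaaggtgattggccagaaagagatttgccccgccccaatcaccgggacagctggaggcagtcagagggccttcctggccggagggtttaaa

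Endoplasmic reticulum chaperones rose in 13 of 29 cases and fell in 2. Sdf2l1, a cofactor of protein folding, had the largest rise of all genes: 5.50, 5.81 and 5.98 in SBN/y against 8.42, 8.58 and 8.74 in SBH/y. Its difference was 2.80 ± 0.08 or 6.97-fold (adjusted p = 3.69e-22), and it was 2.36 in sham-operated rats. Dnajb9, a cochaperone, rose by 0.39 ± 0.07 and Herpud1, of protein disposal, by 0.58 ± 0.10. The central chaperone Hspa5 (BiP) rose by 0.16 ± 0.06 (adjusted p = 0.0379), a call lost when any 1 of 7 of the 14 arrays was left out. Under the clock score covariate 4 of the 29 rose and 1 fell, beside 8.86% and 6.32% of all genes, and Herpud1 and Hspa5 were no longer called. The ER stress response element (CCAAT, 9 bases, CCACG) lay in 2 of 11 windows of called-higher members (18.2%), in 8 of 25 windows of all measured members (32%) and in 0.0657% of all windows.

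Matrix and fibrosis genes rose in 17 of 45 cases and fell in 4, and 11 rose with the clock score. Col3a1, a fibrillar collagen, measured 8.21, 8.52 and 8.79 in SBN/y and 8.85, 9.18 and 9.41 in SBH/y (difference 0.63 ± 0.10, adjusted p = 1.18e-05). Col1a1 rose by 0.32 ± 0.09 with overlapping ranges, was not called by its other probe set (0.11, adjusted p = 0.451) and lost its call with the clock score, and the growth factor Tgfb1 rose by 0.44 ± 0.07. Of the matrix proteases, Mmp9 rose by 1.53 ± 0.13 and Mmp12, of macrophages, by 1.34 ± 0.15, while Mmp2 fell by 0.44 ± 0.06. The other Mmp2 probe set was not called (-0.105, adjusted p = 0.436). The Mmp9 difference was 1.53 in sham-operated rats too, whereas that of Mmp12 was 0.25 (change 1.09, adjusted p = 0.00541). Ccn2, a target of Tgfb1 signalling, differed by 0.07 ± 0.07 (adjusted p = 0.582).

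Cell cycle and mitosis genes rose in 21 of 40 cases and fell in 1. With the clock score in the fit 4 of the 40 rose (10%), beside 8.86% of all genes. The mitotic motor Kif11 measured 5.87, 6.28 and 6.64 in SBN/y and 7.15, 7.61 and 7.76 in SBH/y, a difference of 1.28 ± 0.13 (adjusted p = 2.27e-09). Stmn1 (stathmin) rose by 0.62 ± 0.05 and Racgap1, of cell division, by 0.40 ± 0.08, and these kept their calls with the clock score. The other Racgap1 probe set was not called (0.133, adjusted p = 0.185) and was dim, at means of 3.53 and 3.67. Among immediate early and heat shock genes 11 of 31 rose and 1 fell. Myc measured 6.19, 6.67 and 7.02 against 7.48, 7.81 and 8.21, a difference of 1.18 ± 0.13, and the chaperone Hspa1a rose by 0.44 ± 0.06 against -0.11 in sham-operated rats.

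Genes of mitochondrial oxidative phosphorylation fell in 40 of 62 cases and rose in 1, by small amounts (median -0.13). Uqcrq, of complex III, fell by 0.35 ± 0.05, Ndufa5, of complex I, by 0.32 ± 0.04 and Cox5b, of complex IV, by 0.21 ± 0.03. The Cox5b arrays ran from 11.86 to 11.97 in SBN/y and from 11.65 to 11.77 in SBH/y, without overlap. With the clock score in the fit 11 of the 62 fell, at a median difference of -0.11. In sham-operated rats 37 of the 62 were lower in SBH/y.

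Fatty acid oxidation and peroxisome genes split, with 8 of 43 higher (18.6%) and 12 lower (27.9%), beside 14.9% and 11.9% of all genes. Cyp4a1, a fatty acid omega-hydroxylase, measured 9.23, 9.50 and 9.68 in SBN/y and 11.38, 11.50 and 11.70 in SBH/y (difference 2.07 ± 0.07, adjusted p = 2.31e-20), while its relative Cyp4a3 fell by 1.20 ± 0.06. The peroxisomal membrane protein Pxmp4 rose by 2.35 ± 0.09, and Mpv17l, another protein of that list, fell by 1.94 ± 0.06. Ephx2, the epoxide hydrolase that removes epoxides of arachidonic acid, fell by 0.80 ± 0.05. In the cytochrome P450 and arachidonate list 9 of 36 rose (25%) and 10 fell (27.8%).

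Other metabolic lists also held calls in both directions. Cholesterol and fatty acid synthesis had 3 of 27 higher and 4 lower (none lower with the clock score), with the desaturase Fads1 higher by 0.88 ± 0.10. The shares of that list, 11.1% higher and 14.8% lower, stood beside 14.9% and 11.9% of all genes. Glycolysis and gluconeogenesis had 3 of 24 higher (12.5%) and 7 lower (29.2%), and 2 lower with the clock score. The glucose transporter Slc2a2 was higher by 0.86 ± 0.09 and the kinase Pdk1 lower by 0.54 ± 0.07. The other Pdk1 probe set was not called (-0.12, adjusted p = 0.388). Arginine, urea, creatine and betaine genes had 5 of 31 higher (16.1%) and 11 lower (35.5%), and 7 lower with the clock score. Bhmt, which passes methyl groups from betaine, was lower by 1.85 ± 0.13 and Arg2 (arginase) by 0.67 ± 0.07. NRF2 target and glutathione genes had 13 of 27 higher (48.1%) and 4 lower (14.8%), and 7 higher with the clock score. Blvra, biliverdin reductase, rose by 2.03 ± 0.07 and Akr7a3, an aldehyde reductase, by 0.56 ± 0.06, and Gsta3, a glutathione transferase, fell by 1.21 ± 0.10.

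Vasoactive genes had 6 of 33 higher (18.2%) and 4 lower (12.1%), near the shares of all genes, 14.9% and 11.9%. Agtr1b, an angiotensin receptor, fell by 0.72 ± 0.09 and the peptidase Mme (neprilysin) by 0.51 ± 0.05, both without overlap. Agt (angiotensinogen) rose by 0.47 ± 0.12 (adjusted p = 0.00395), with arrays from 4.12 to 5.14 in SBN/y and from 4.94 to 5.53 in SBH/y. Of inner medulla, urea and osmolyte genes 3 of 12 rose (25%) and 4 fell (33.3%), among them the inositol transporter Slc5a3, lower by 0.53 ± 0.07. The other Slc5a3 probe set was not called (-0.002, adjusted p = 0.991) and was dim, at a mean of 4.36 in each strain.

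The largest differences were mostly present in both surgical states. As for the MHC genes above, sequence differences between the strains under the probes were not tested for any gene listed here. The 12 genes with the largest rise were Sdf2l1, Mis18a, Tmed6, Havcr1, Pxmp4, Gng13, RT1-Ba, Cyp4a1, Blvra, Serpinb12, Jchain and Grhl1, from 2.80 down to 1.80. All except Havcr1 were also called higher in sham-operated SBH/y, by 1.11 or more. Mis18a, of centromere assembly, measured 3.24, 3.83 and 3.96 in SBN/y and 6.20, 6.27 and 6.36 in SBH/y, a difference of 2.54 in both states. Tmed6, of the secretory pathway, rose by 2.51 ± 0.12 and Gng13, a G protein subunit, by 2.33 ± 0.12. The 12 genes with the largest fall were Ly6i, RT1-Bb, Matn1, Nxpe2, Col17a1, Dph6, Brcc3-ps7, Mpv17l, Bhmt, Npas2, Azgp1 and Ypel4. Ly6i measured 11.20, 11.47 and 11.56 in SBN/y and 7.37, 7.61 and 7.76 in SBH/y (difference -3.85 ± 0.14 or 14.5-fold, adjusted p = 1.29e-19). Matn1, a matrix protein of cartilage, fell by 3.41 ± 0.17, and Dph6, of diphthamide synthesis, by 2.06 ± 0.06. Col17a1, a collagen of hemidesmosomes, fell by 2.13 ± 0.09. Nxpe2 fell by 3.22 ± 0.41 and spread widely in SBN/y, from 5.52 to 7.49. Npas2 overlapped between the strains, 5.58 to 7.60 against 4.38 to 7.74, and lost its call with the clock score.

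Set beside sham-operated rats, 2020 of the 3808 called genes were also called there in the same direction, 17 in the opposite direction, and 1771 were not called there. In sham-operated rats 11.8% of all genes were called higher and 9.69% lower in SBH/y. Missing the threshold in 1 state does not show a difference between states, which has its own test. It was passed by 439 probe sets (1.41%) and 293 genes (2.06%), and by 231 of the 3808 called genes (6.07%), though both contrasts use the same uninephrectomized arrays. In 104 of the 231 SBH/y was higher and the difference larger than with both kidneys, and in 115 it was lower and the difference further below. In the remaining 12 the difference was smaller, as for Sult1c3, a sulfotransferase, higher by 0.54 ± 0.12 after uninephrectomy and by 1.64 with both kidneys. Both calls use the difference after uninephrectomy, so the choice of these 231 favours differences that were larger in that state. Of all 293 genes past the test between states, the change was above 0 in 137 and below 0 in 156. With the clock score as a covariate no probe set was called in this test by limma, and 1537 had an unadjusted p under 0.05; the median SE of the change rose from 0.093 to 0.125. Without SBH/y replicate 2, 707 probe sets called after uninephrectomy passed it, in place of 347.

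Clock genes were prominent among those with the greatest change between states. Npas2 changed by -2.67, Bmal1 by -2.27, Dbp by 2.58, Nr1d2 by 1.86, Per3 by 1.85, Bhlhe41 by 1.30 and Tef by 1.14, and with the clock score as a covariate the strain difference itself lay between -0.34 and 0.61 for these genes, which are themselves part of the score. Of the 7, Bhlhe41 kept its call in that fit and the others lost theirs. Havcr1 changed by 2.25, Areg by 1.24 and PCOLCE2, an enhancer of procollagen processing, by 1.16. Mlana, a melanosome protein, measured 6.31, 6.67 and 6.90 in SBN/y and 4.74, 5.42 and 6.24 in SBH/y after uninephrectomy, and its difference of -1.19 ± 0.15 compared with 0.14 in sham-operated rats (change -1.33, adjusted p = 0.00105). Wsb1, Coq8a, Pde4dip and LOC100912188 changed by -1.11, -0.95, -0.93 and -1.02, and their strain differences after uninephrectomy lost their calls with the clock score.

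**Figure D5:**
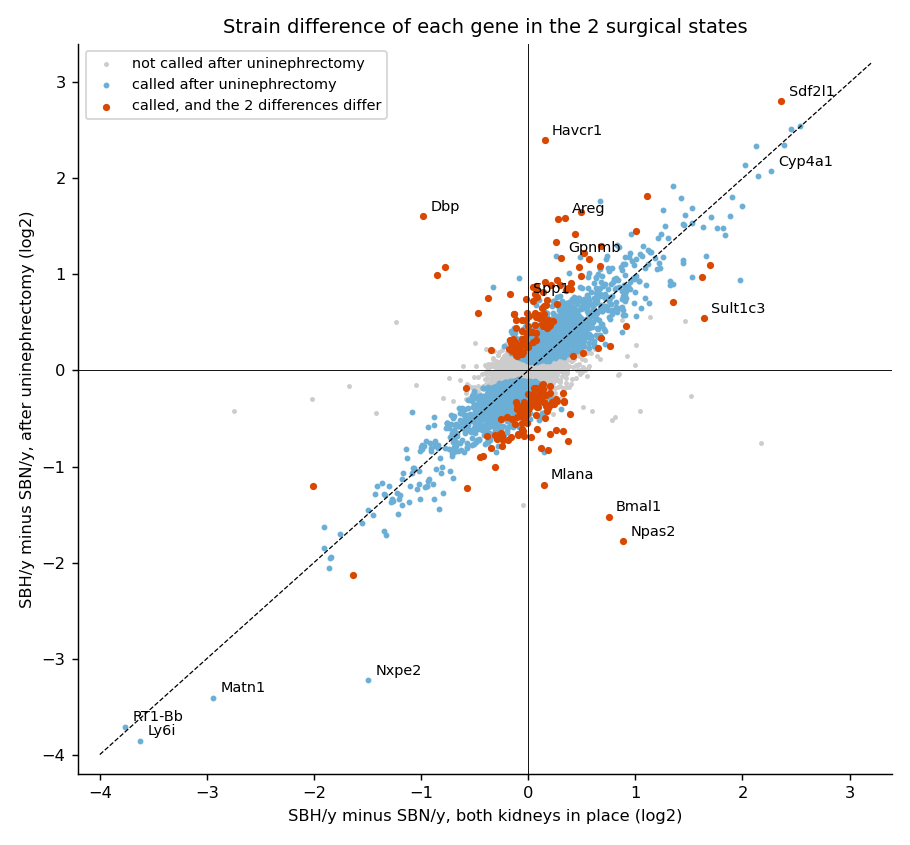
Strain difference (SBH/y minus SBN/y, log2) of 14217 genes with both kidneys in place (x axis) and after uninephrectomy (y axis); the dashed line marks equal differences and orange points the 231 called genes whose differences differed between states. Havcr1 lies at 0.15 and 2.40, and Ly6i and RT1-Bb lie near the line.

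Among markers of neighbouring tissue and blood, the adipose level varied most between arrays. Of 19 adipose markers 2 rose (10.5%) and 1 fell (5.26%), beside 14.9% and 11.9% of all genes (1 and 0 markers with the clock score). Their mean centred level ran from -0.51 to 0.61 in SBN/y and from -0.44 to 0.070 in SBH/y. The 1 that fell, Pck1 (-0.12), is also on the proximal tubule list. Lpl, lipoprotein lipase, which kidney also makes, rose by 1.48 ± 0.09. Ucp1, the marker of brown fat, ranged from 5.12 to 8.85 in SBN/y and from 5.76 to 7.14 in SBH/y, with a difference of -0.42 ± 0.38 (adjusted p = 0.516). In sham-operated rats the adipose level ran from -0.21 to 0.76 in SBN/y and from -0.25 to 0.067 in SBH/y. There 7 of the 19 markers were lower and 1 higher in SBH/y. Ucp1 changed by 2.33 between states, and the part of fat in that change was not tested. Of 12 adrenal markers 1 rose (8.33%) and 3 fell (25%), among them Fdx1 at -0.24 ± 0.05. All 4 calls were lost with the clock score. The adrenal level ran from -0.038 to 0.086 in SBN/y and from -0.14 to 0.073 in SBH/y. Cyp17a1, another that fell, was dim, at means of 3.61 in SBN/y and 3.42 in SBH/y. The other Fdx1 probe set was not called (-0.003, adjusted p = 0.992). Of 6 erythrocyte markers 1 rose and 1 fell, 16.7% each beside 14.9% and 11.9% of all genes (0 and 1 with the clock score). Their levels ran from -0.22 to 0.22 in SBN/y and from -0.20 to 0.20 in SBH/y. The 1 that fell was Slc4a1, given above among the intercalated cell markers. The part of neighbouring tissue and blood in the strain differences was not tested.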

How the data were processed

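Total RNA of rat kidney was hybridized to Affymetrix arrays. The submitters' processing notes name GCOS and RMA, with no versions, and the values were used as deposited by the authors: log2 RMA values of 31099 probe sets on 28 arrays, with 57 control probe sets left out of the tests. Arrays were grouped by title. Gene symbols came from GEO's platform annotation, updated through RefSeq (assembly GRCr8): 20826 probe sets had 1 symbol, 436 several and 9780 none, and the last 2 kinds were tested but not named. Array number, 7 per group, limits the precision. The model of all arrays was limma's (version 3.58.1, R 4.3.3, with lmFit and default eBayes, 24 residual degrees of freedom). It was checked on simulated arrays with noise independent between probe sets, so shared shifts between arrays such as the clock score were not covered. Single values were tested by exact permutation. Promoter windows came from RefSeq, GRCr8.

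The comparison, the 38 gene lists and the clock score were chosen with earlier results of these data known. Genes were named by rule: among called genes, the top 12 in each direction by size of difference, 3 called members of each list with the smallest p, the 8 largest and 8 smallest changes between surgical states, and a panel of 33 named whatever their values: 150 in all, of which 142 were called. Alternatives were quantile normalization, median centring, removal of the 40% dimmest probe sets, another variance prior, only the 14 uninephrectomized arrays, the replicate number as a block, another probe set per gene, leaving out each array, and, added after the data were seen, the clock score as a covariate and both exceptional arrays left out.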

Additional observations from a re-analysis of the deposited data

Results flagged for a closer look

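By limma at an adjusted p under 0.05, 37 of the named genes had a strain difference that changed between surgical states. The values here are the difference after uninephrectomy minus that with both kidneys in place, on the log2 scale. Of the 37, Clu and Ucp1 were not called after uninephrectomy itself. The change was above 0 for Areg (1.24), Asns (0.45), Atf3 (0.48), Bhlhe41 (1.30), Clu (0.54), Col1a1 (0.49), Cxcl16 (0.28), Dbp (2.58), Des (0.36), Gpnmb (0.87), Havcr1 (2.25), Herpud1 (0.71), Hspa1a (0.55), Jchain (0.71), Mmp12 (1.09), Mthfd2 (0.59), Nr1d2 (1.86), PCOLCE2 (1.16), Per3 (1.85), Sdf2l1 (0.44), Spp1 (0.77), Tef (1.14), Timp1 (0.62) and Ucp1 (2.33). It was below 0 for Bmal1 (-2.27), Col17a1 (-0.50), Coq8a (-0.95), Klk1 (-0.49), LOC100912188 (-1.02), Mlana (-1.33), Mme (-0.25), Npas2 (-2.67), Nphs1 (-0.55), Pde4dip (-0.93), Sult1c3 (-1.10), Wsb1 (-1.11) and Wt1 (-0.59).

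A single array stood apart from the other 6 of its group in 38 of 300 checks of a gene in a group, where chance gives about 1 in 20, or 15. SBH/y replicate 2 stood apart for Bmal1 (7.52), Npas2 (7.74), Coq8a (8.38), LOC100912188 (6.99), Pde4dip (8.44), Slc8a1 (9.12) and Wsb1 (9.53) on the high side, and for C1qc (7.53), Dbp (6.58), Herpud1 (9.52), Hlf (8.30), Nr1d2 (7.59), Per3 (5.31) and Tef (6.97) on the low side. SBN/y replicate 6 was high for Bhlhe41 (7.59), Bpgm (8.72), Dbp (9.03), Herpud1 (9.86), Per3 (7.71) and Tef (8.03), and low for Agt (4.12), Bmal1 (4.95), LOC100912188 (5.89) and Npas2 (5.58). SBH/y replicate 6, the array with the most Havcr1, was high for Clu (10.47) and Lcn2 (4.24) and low for Atp6v1g3 (9.72) and Uqcrq (11.08). Single flags fell on SBH/y replicate 4 for Kif11 (7.15) and on replicate 7 for Pdk1 (5.24) and Umod (13.18). In SBN/y they fell on replicate 1 for Kcne1 (6.24), replicate 2 for Mpv17l (10.43) and RT1-Ba (8.54), replicate 3 for Podxl (8.90), replicate 4 for Fcer1g (9.12), replicate 5 for Kl (8.31) and replicate 7 for Lcn2 (4.08).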

How the results depend on the processing

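Under the alternatives planned, 134 of the 142 called named genes kept direction and call, and leaving out single arrays kept 135. Nothing in the labels says that replicate numbers pair the arrays, and no pairing was assumed: the same-number correlations ran from 0.013 to 0.264, 4 of 7 over 0.1. As a hint from the data, 6 of 14 arrays matched their own number best. With the replicate block 7567 probe sets and 4271 genes were called, and 628 probe sets passed the test between surgical states in place of 347. At least 2-fold, 299 probe sets were called. Leaving out single arrays gave 6095 to 6603 probe sets, 3473 to 3777 genes and, for the test between states, 252 to 707. With the clock score as a covariate 3847 probe sets and 2158 genes were called, 112 of the 142 named genes kept their call, the larger count of 20 of 38 lists moved by over 1.5 times, and 0 probe sets passed between states (limma; 1537 at an unadjusted p under 0.05). Without both exceptional arrays 774 passed. Differences that turned sign with the clock score were Bmal1 (0.018), Dbp (-0.074), Nr1d2 (-0.024), Per3 (-0.337) and Tef (-0.036). Uncalled differences near 0 turned too: Lcn2 under quantile normalization (0.01), median centring (0.002) and without both arrays (0.006); Lrp2 under quantile normalization (-0.043) and without both arrays (0.00); Umod under median centring (0.008) and the clock score (0.022); and the Havcr1 correlation with Umod under quantile normalization (r = 0.093). Leaving out single arrays gave -0.075 to 0.031 for Lcn2, -0.004 to 0.019 for Lrp2 and -0.021 to 0.026 for Umod. The cause was not tested. Signal near background limits what dim probe sets can show.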
